A study of Mus musculus with 18 samples.

Results

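The loss of Cip2a was examined in mouse mammary glands taken 2 weeks after the last dose of the carcinogen DMBA. The libraries were chosen by their labels: 3 libraries of Cip2a-/- glands were set against 3 libraries of wild-type (WT) glands, 6 of the 18 libraries of the series. All 6 mice were on a mixed C57BL/6Jx129 background. They had received 1 mg of DMBA (7,12-dimethylbenz[a]anthracene) in oil by gavage once a week for 6 weeks, from an age of 12 to 14 weeks. The other 12 libraries were Cip2a-/- and WT glands of untreated mice, and tumour-free Cip2a-/- and WT glands from mice killed at the endpoint because of a DMBA-induced tumour in any tissue, 3 libraries each. RNA came from whole glands with the lymph nodes left out, so epithelium, fat, vessels, immune cells and any attached muscle share 1 library. The sources used here do not give how the Cip2a allele was made, the litters and cages, or whether an oil-only group was kept.

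CIP2A (cancerous inhibitor of protein phosphatase 2A) is best known as an inhibitor of the phosphatase PP2A, through which it stabilises MYC and other phosphorylated oncoproteins. It also binds TOPBP1 and tethers broken chromosomes during mitosis, and cells that lack BRCA1 or BRCA2 depend on it. DMBA is turned by cytochrome P450 enzymes into metabolites that form bulky DNA adducts, to which cells respond through the p53 and checkpoint pathways. The mammary gland is a classic target tissue of DMBA, and its tumours arise from the ductal epithelium.

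Cip2a lies on chromosome 16 from 48994157 to 49019716 (GRCm38, the build also called mm10), under the older symbol C330027C09Rik in the count table. Its start faces that of Dzip3, an E3 ubiquitin ligase gene on the opposite strand, whose annotated span runs from 48924228 to 48994142. The stretch around both starts is shown because these were a pair of neighbours that both had low values in Cip2a-/- glands. It is RefSeq sequence of build GRCm38.p6, chr16:48993938-48994237, plus strand, with the 14 bases between the start of Dzip3 and that of Cip2a in capitals.
Cip2a promoter: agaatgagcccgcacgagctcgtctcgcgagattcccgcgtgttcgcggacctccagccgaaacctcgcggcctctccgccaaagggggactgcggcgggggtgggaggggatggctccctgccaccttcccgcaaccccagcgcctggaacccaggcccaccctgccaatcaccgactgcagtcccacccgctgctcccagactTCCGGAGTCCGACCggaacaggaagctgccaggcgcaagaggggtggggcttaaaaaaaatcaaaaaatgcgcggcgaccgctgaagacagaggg
On either strand the window held 1 match to the ETS core CCGGAAGT, which starts at 48994140 and overlaps the capitals. The same core is found in 3.89% of the 32851 promoter windows of this length. It held 1 match to CCAAT, found in 37.4% of windows, and no match to TATAAA. These matches are letters in a window, not measured binding sites.

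Cip2a itself was counted 0 times in each of the 3 Cip2a-/- libraries, against 65, 71 and 67 reads in WT libraries 1, 2 and 3. The WT level was thus 3.13, 3.30 and 2.82 CPM (read counts scaled to library size by TMM), and the groups did not overlap. Pooled over the group, the WT level was 61.2 times a floor of 3 reads over the 3 Cip2a-/- libraries. Cip2a fell in Cip2a-/- glands by the edgeR quasi-likelihood test (adjusted p = 0.0281), and the fitted log2 fold change was -8.91, a value that depends on the prior count since Cip2a-/- glands held no reads. The adjusted p was 9.09e-07 with DESeq2 and 0.00951 with limma voom. When any 1 of the 6 libraries was left out, the edgeR adjusted p lay between 0.0943 and 0.174. WT untreated library 3, which takes part only in the estimate of spread here, stood apart from the series: Xist, the RNA of the inactive X chromosome, was at 0.886 CPM there and at 286 CPM or more in the other 17 libraries. Without that library, an alternative chosen after seeing the data, the adjusted p of Cip2a was 0.0528 and no gene was called, with 318 at an unadjusted p under 0.05.

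Cip2a was the 1 gene of 15482 tested that passed an adjusted p under 0.05, or 0.00646% of the genes. At an unadjusted p under 0.05 there were 377 genes (2.44%), of which 208 (1.34%) had higher and 169 (1.09%) had lower values in Cip2a-/- glands. That split changed with the settings: 44.9% of such genes were higher with upper-quartile scaling, against 55.2% with TMM. Without Cip2a-/- library 3 it was 75.8%, without Cip2a-/- library 2 67.5%, without WT library 2 39.7%, and in a fit of the 6 libraries alone 43.6%. In 1047 genes (6.76%) every Cip2a-/- library was above every WT library, and in 993 genes (6.41%) every one was below. The median log2 fold change over all genes was 0.04. The p-values set each difference against a spread between mice that was estimated over all 18 libraries, with 3 mice a group. They cover the mice of this series only. All differences other than that of Cip2a are given below as values that did not pass the test.

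The 6 glands differed in their make-up, and this touches many of the values that follow. Cip2a-/- library 1 stood apart on the first principal component of the 6 libraries, which held 57.9% of the variance, at -111.0 against -18.9 to 46.2 in the other 5. Ckm, which encodes muscle creatine kinase, stood at 9288, 19.3 and 10.3 CPM in Cip2a-/- libraries 1, 2 and 3, against 18.3, 268 and 971 CPM in WT libraries 1, 2 and 3. All 19 skeletal muscle genes tested had positive fold changes, with a median log2 fold change of 2.91. Without Cip2a-/- library 1 the median was -4.37, so the sign of this list was set by 1 gland. B cell genes were high in Cip2a-/- library 2 and, less so, in library 3. Cd79a, a signalling subunit of the B cell receptor, stood at 0.411, 48.9 and 8.81 CPM in Cip2a-/- libraries 1 to 3, against 1.01, 0.837 and 0.799 CPM in WT libraries 1 to 3. The summed level of the 15 B cell genes was 5.004 to 373 CPM in Cip2a-/- glands and 9.89 to 11.1 CPM in WT glands. Lymph node stroma genes followed the same order among the Cip2a-/- glands, with Cr2 (complement receptor 2 of follicular dendritic and B cells) at 0, 25.1 and 3.20 CPM, against 0.144, 0.139 and 0.421 CPM in WT glands. The high-endothelial adhesion gene Madcam1 went the other way, at 0.206, 0.847 and 0.603 CPM in Cip2a-/- glands, against 6.40, 2.32 and 1.39 CPM in WT glands (-2.56 ± 0.80, unadjusted p = 0.00637). WT library 1 had the highest milk gene expression, as described below. Short and long transcripts also differed: the median log2 fold change was 0.16 in the fifth of genes with the shortest transcripts and -0.03 in the fifth with the longest. Among the shortest 398 genes were apart upward and 99 downward, and among the longest 109 upward and 264 downward. The trend was not shared by all Cip2a-/- glands. The slope of centred log2 CPM per doubling of transcript length was 0.068, -0.0704 and -0.0841 in Cip2a-/- libraries 1, 2 and 3, against 0.0708, 0.0234 and -0.0077 in WT libraries 1, 2 and 3, so that Cip2a-/- library 1 lay beside WT library 1. The part of this length trend in the values of single genes was not tested.

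**Figure D1:**
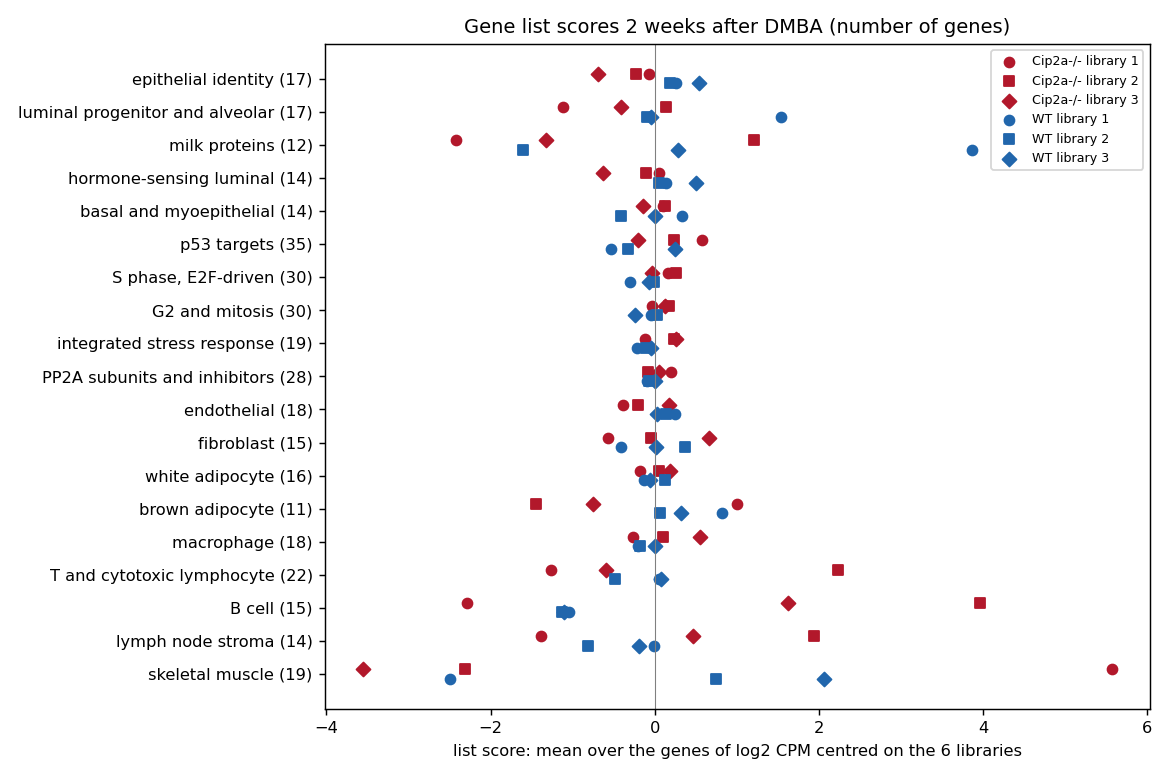
Scores of 19 gene lists in the 6 glands taken 2 weeks after DMBA. Each point is 1 library, red for Cip2a-/- and blue for WT with 1 shape per library number, and the x axis is the mean over a list's genes of log2 CPM centred on the 6 libraries. Skeletal muscle spreads from -3.56 to 5.57 and B cell from -2.29 to 3.96 among the Cip2a-/- glands, while the epithelial identity scores of the Cip2a-/- glands (-0.69 to -0.07) lie below those of the WT glands (0.19 to 0.54).

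Genes of epithelial identity had lower values in Cip2a-/- glands throughout the list. These genes encode the junctions, keratins, proteases and splicing factors that set epithelial cells apart from stroma. All 17 genes had negative fold changes (44.2% of all genes were negative), with a median log2 fold change of -0.68, against 0.04 over all genes. None was called and none reached an unadjusted p under 0.05. In 10 of the 17 every Cip2a-/- library lay below every WT library, as in 6.41% of all genes. In bulk tissue, fewer epithelial cells and less RNA per epithelial cell cannot be told apart.

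The epithelial splicing regulator gene Esrp2 stood at 16.8, 14.0 and 10.7 CPM in Cip2a-/- libraries 1 to 3, against 27.6, 21.0 and 33.1 CPM in WT libraries 1 to 3. The groups lay apart, and the log2 fold change was -0.98 ± 0.76 (SE, edgeR, unadjusted p = 0.215). St14, which encodes the membrane protease matriptase, stood at 57.0, 48.6 and 33.0 CPM in Cip2a-/- glands, against 105, 56.3 and 93.0 CPM in WT glands, so the highest Cip2a-/- gland just overlapped the lowest WT gland. The luminal keratin gene Krt19 stood at 460, 373 and 263 CPM in Cip2a-/- glands, against 359, 488 and 1026 CPM in WT glands, where WT library 3 was high. Epcam and the matriptase inhibitor gene Spint1 are given too, chosen after their values were seen. Epcam, the epithelial adhesion molecule gene, stood at 94.4, 110 and 62.9 CPM in Cip2a-/- glands, against 194, 136 and 176 CPM in WT glands (log2 fold change -0.92 ± 0.91). Spint1 stood at 23.9, 30.1 and 17.6 CPM in Cip2a-/- glands, against 41.2, 41.1 and 40.3 CPM in WT glands (-0.78 ± 0.74). In both genes the 3 Cip2a-/- glands were the 3 lowest, with library 3 lowest of all. The standard errors come from the fit over all 18 glands. The list's median stayed between -0.80 and -0.56 when any 1 of the 6 libraries was left out. In the other mice of the series the same list had a median of 0.11 in untreated glands (0.36 without WT untreated library 3) and 1.01 at the endpoint, Cip2a-/- over WT.

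The 3 kinds of mammary epithelial cell were then read from their own markers. Of the 17 markers of luminal progenitor and alveolar cells, 4 lay apart below WT (6.41% of all genes did). All 17 were negative, with a median log2 fold change of -0.83. Much of this size came from WT library 1. Kit, the stem cell factor receptor of luminal progenitors, stood at 15.01, 62.3 and 30.2 CPM in Cip2a-/- glands, against 222, 59.1 and 31.4 CPM in WT glands. Ehf, an ETS factor gene of the same lineage, stood at 7.95, 19.4 and 7.05 CPM in Cip2a-/- glands, against 121, 15.3 and 14.6 CPM in WT glands. Without WT library 1 the median of the list was -0.34. The milk protein genes, which alveolar cells express, were also highest in this gland. Lalba (alpha-lactalbumin) stood at 0.137, 2.92 and 1.58 CPM in Cip2a-/- glands, against 79.2, 1.16 and 2.36 CPM in WT glands, so the groups overlapped. The median of 12 milk genes was -2.92, and -0.01 without WT library 1.

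Hormone-sensing luminal markers were negative in 12 of 14 genes, with a median of -0.70, and 2 lay apart below WT (6.41% of all genes did). Prom1, the membrane glycoprotein prominin 1, stood at 16.6, 24.5 and 8.30 CPM in Cip2a-/- glands, against 40.4, 28.6 and 48.5 CPM in WT glands (log2 fold change -1.25 ± 0.57, unadjusted p = 0.0445). Gata3, the master transcription factor gene of luminal cells, stood at 80.9, 74.4 and 54.7 CPM in Cip2a-/- glands, against 94.7, 127 and 138 CPM in WT glands (-0.78 ± 0.54). In both genes all Cip2a-/- glands lay below all WT glands. The prolactin receptor gene Prlr did not separate the groups, at 366, 181 and 136 CPM in Cip2a-/- glands, against 152, 337 and 438 CPM in WT glands. Without WT library 3 the median of this list was -0.29, and without Cip2a-/- library 3 it was -0.40. Basal and myoepithelial markers were negative in 6 of 14 genes, with a median of 0.06, and no gene lay apart. Igfbp5, an IGF binding protein gene, stood at 694, 1111 and 1307 CPM in Cip2a-/- glands, against 2188, 1147 and 809 CPM in WT glands. No test of the difference between the luminal and the basal lists was made.

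Genes of the ErbB family of growth factor receptors and their ligands had no common direction: of 11 tested, 6 were positive and 5 negative, with a median of 0.07. Egfr, the EGF receptor gene, overlapped at 45.9, 47.4 and 57.5 CPM in Cip2a-/- glands, against 48.4, 49.7 and 45.4 CPM in WT glands (0.07 ± 0.53). Erbb3, the receptor that signals with ERBB2, stood at 41.1, 21.3 and 15.9 CPM in Cip2a-/- glands, against 87.1, 43.1 and 42.2 CPM in WT glands (-1.14 ± 0.83). Erbb2 stood at 52.6, 55.8 and 50.9 CPM in Cip2a-/- glands, against 76.3, 86.3 and 70.3 CPM in WT glands (-0.55 ± 0.58). These 3 receptor genes were chosen after their values were seen, and the groups lay apart in Erbb3 and Erbb2. The ligand gene Hbegf had higher values, at 8.91, 4.95 and 5.33 CPM in Cip2a-/- glands, against 2.79, 4.09 and 4.25 CPM in WT glands (0.78 ± 0.35, unadjusted p = 0.0439).

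Target genes of p53 had mostly higher values in Cip2a-/- glands. Of 35 genes 30 were positive (55.8% of all genes were positive) and 5 negative, and the median log2 fold change was 0.26. No gene was called, and 3 had an unadjusted p under 0.05, all higher (1.34% of all genes did). Groups lay apart above WT in 5 of the 35 (6.76% of all genes). In the other mice of the series the median was -0.04 in untreated glands (0.08 without WT untreated library 3) and 0.00 at the endpoint.

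Among the effectors of p53, Bbc3, which encodes the pro-apoptotic protein PUMA, stood at 41.6, 37.3 and 31.2 CPM in Cip2a-/- glands, against 17.05, 23.4 and 28.1 CPM in WT glands. Its groups lay apart (log2 fold change 0.68 ± 0.28, SE, edgeR unadjusted p = 0.0291). Bax, which permeabilises mitochondria, stood at 107, 107 and 81.8 CPM in Cip2a-/- glands, against 46.4, 57.8 and 114 CPM in WT glands, and overlapped. The death receptor gene Fas stood at 32.2, 41.2 and 34.1 CPM in Cip2a-/- glands, against 30.05, 26.2 and 26.7 CPM in WT glands (0.37 ± 0.18). In Bbc3 and Fas every Cip2a-/- gland lay above every WT gland. These 3 genes, which promote cell death, are a choice from the 35 targets and do not stand for the other members. Of the 35, 5 lay apart above WT (6.76% of all genes did).

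Cdkn1a encodes the cell cycle inhibitor p21 and stood at 1081, 655 and 432 CPM in Cip2a-/- glands, against 139, 164 and 695 CPM in WT glands. WT library 3 therefore lay between Cip2a-/- libraries 1 and 2, and the log2 fold change of 1.12 ± 0.74 did not pass (unadjusted p = 0.151). Ccng1, the cyclin G1 gene, stood at 1143, 400 and 221 CPM in Cip2a-/- glands, against 122, 178 and 358 CPM in WT glands (1.42 ± 0.64, unadjusted p = 0.0425), with WT library 3 between Cip2a-/- libraries 2 and 3. Mdm2, the ubiquitin ligase gene that feeds back on p53, stood at 169, 108 and 74.0 CPM in Cip2a-/- glands, against 58.5, 67.9 and 125 CPM in WT glands (0.48 ± 0.30). Eda2r, Aen, Gdf15 and Psrc1 likewise had their highest Cip2a-/- value in library 1 and their highest WT value in library 3. Dcxr, a carbonyl reductase gene, had the smallest p of the list, at 115, 123 and 80.1 CPM in Cip2a-/- glands, against 35.1, 45.8 and 79.5 CPM in WT glands (0.99 ± 0.35, unadjusted p = 0.0138). The glands with the highest p53 target score in each group, Cip2a-/- library 1 (0.58) and WT library 3 (0.25), were also those with the highest skeletal muscle score in each group (5.57 and 2.06). The 3 glands with the least muscle RNA differed in their p53 scores: Cip2a-/- library 2 had 0.23 (muscle -2.32), Cip2a-/- library 3 had -0.21 (muscle -3.56) and WT library 1 had -0.53 (muscle -2.50). Without Cip2a-/- library 1 the median of the list was 0.13, and without Cip2a-/- library 3 it was 0.45. The part of muscle in these values was not tested.

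**Figure D2:**
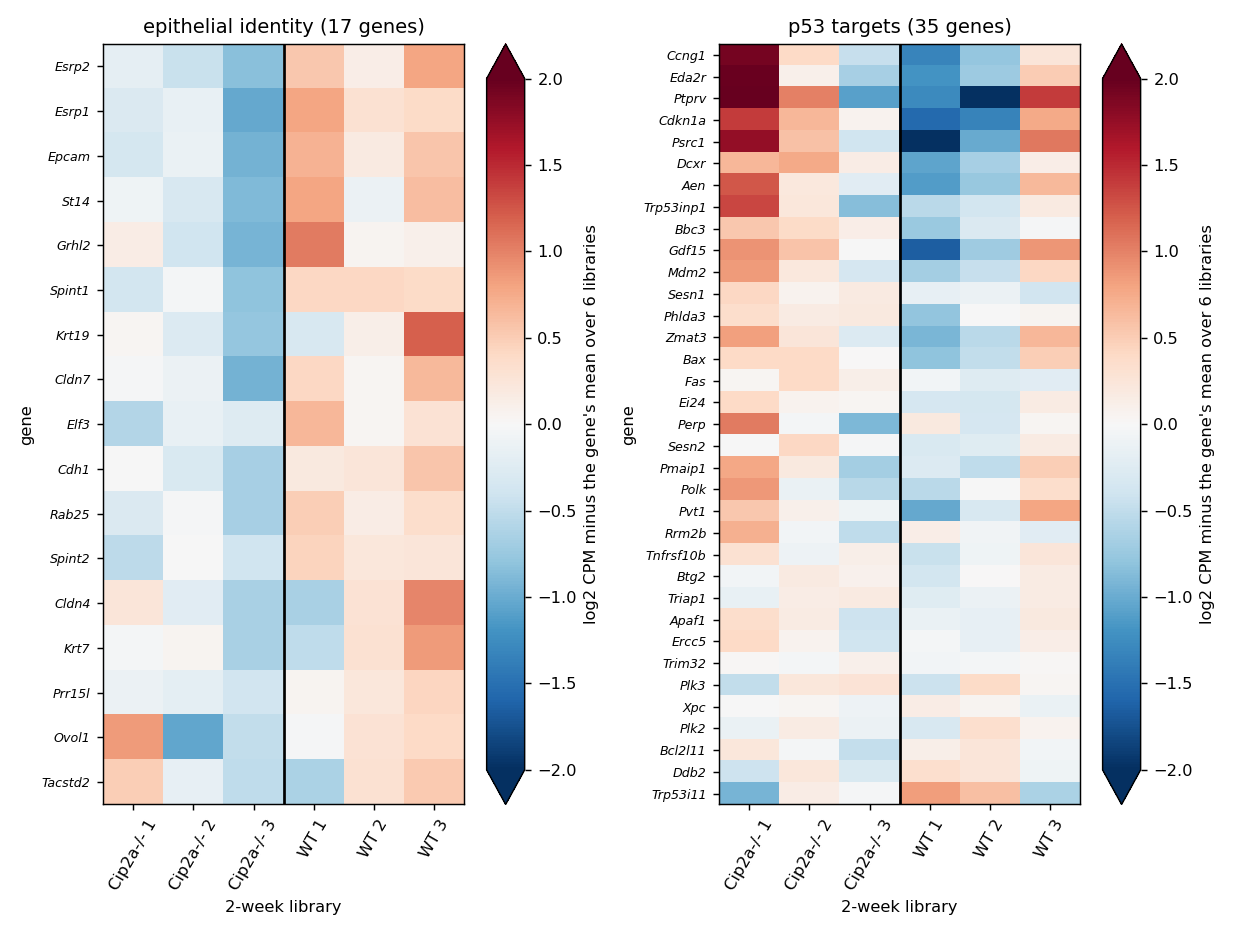
The 17 epithelial identity genes and the 35 p53 target genes in each 2-week library, as log2 CPM minus the gene's mean over the 6 libraries, with colours that saturate at -2 and 2. Columns left of the black line are Cip2a-/- libraries 1 to 3 and columns right of it are WT libraries 1 to 3. Blue prevails on the left for epithelial genes, darkest in Cip2a-/- library 3, while for p53 targets Cip2a-/- library 1 is reddest and WT library 3 is red in many of the same genes, such as Cdkn1a (1081 and 695 CPM).

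Further inhibitors of the cell cycle were read from the senescence list, of which 12 of 17 genes were positive (median 0.33). Cdkn2b, the p15 gene, stood at 17.1, 14.2 and 21.3 CPM in Cip2a-/- glands, against 5.10, 4.602 and 15.6 CPM in WT glands, so WT library 3 overlapped (1.06 ± 0.49, unadjusted p = 0.0472). Cdkn2c, the p18 gene, lay apart at 209, 177 and 193 CPM in Cip2a-/- glands, against 79.6, 125 and 161 CPM in WT glands (0.66 ± 0.55), and was chosen after its values were seen.

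Genes of DNA replication had slightly higher values in Cip2a-/- glands. S phase genes driven by E2F factors were positive in 28 of 30, with a median of 0.25. No gene had an unadjusted p under 0.05, and 6 lay apart above WT (6.76% of all genes did). Gins1, a subunit gene of the replicative helicase, stood at 4.66, 4.995 and 3.20 CPM in Cip2a-/- glands, against 2.99, 3.07 and 2.48 CPM in WT glands (0.59 ± 0.37). Ccne1, cyclin E1, which starts S phase, stood at 4.73, 9.40 and 6.31 CPM in Cip2a-/- glands, against 3.80, 5.07 and 4.46 CPM in WT glands (0.62 ± 0.37). The helicase gene Mcm7 did not separate the groups, at 41.9, 45.3 and 37.5 CPM in Cip2a-/- glands, against 42.5, 37.3 and 38.4 CPM in WT glands. Genes of G2 and mitosis were positive in 27 of 30, with a median of 0.17. Mki67, the proliferation marker, stood at 32.4, 26.9 and 26.9 CPM in Cip2a-/- glands, against 24.9, 26.0 and 21.1 CPM in WT glands. The groups did not overlap, but the log2 fold change of 0.26 ± 0.94 was smaller than its error. The medians of the same lists were 0.89 and 1.29 in untreated glands, and -0.71 and -0.83 at the endpoint. The 2-week values therefore lay between those of the other conditions.

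The partners and targets of CIP2A were compared as a list of 14 genes, with 9 positive and 5 negative and a median of 0.09. Mdc1, the scaffold that recruits repair factors and TOPBP1 to broken DNA, was the 1 member with an unadjusted p under 0.05 (2.44% of all genes). It stood at 37.2, 36.3 and 30.8 CPM in Cip2a-/- glands, against 49.7, 40.6 and 48.4 CPM in WT glands (-0.41 ± 0.19, unadjusted p = 0.0451), and the groups lay apart. Topbp1 stood at 33.4, 37.8 and 28.4 CPM in Cip2a-/- glands, against 31.8, 32.2 and 30.7 CPM in WT glands (0.07 ± 0.23). Myc, whose protein CIP2A stabilises, stood at 15.9, 31.1 and 26.2 CPM in Cip2a-/- glands, against 32.5, 22.5 and 23.6 CPM in WT glands (-0.10 ± 0.52). Both overlapped between the groups. The kinase gene Akt1 stood at 157, 189 and 219 CPM in Cip2a-/- glands, against 183, 191 and 197 CPM in WT glands (-0.02 ± 0.22).

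PP2A itself was measured through 28 genes of its subunits, inhibitors and modifiers, of which 22 were positive and 6 negative (median 0.09). Groups lay apart above WT in 3 of them, where 6.76% of all genes did. The catalytic subunit gene Ppp2ca stood at 235, 220 and 245 CPM in Cip2a-/- glands, against 201, 225 and 209 CPM in WT glands (0.14 ± 0.18). The scaffold subunit gene Ppp2r1a stood at 203, 236 and 276 CPM in Cip2a-/- glands, against 206, 243 and 229 CPM in WT glands (0.08 ± 0.15). Neither separated the groups. Set, which encodes another protein inhibitor of PP2A, stood at 106, 98.3 and 96.0 CPM in Cip2a-/- glands, against 83.9, 91.7 and 108 CPM in WT glands (0.08 ± 0.16). Arpp19, whose phosphorylated product inhibits PP2A with the B55 subunit during mitosis, stood at 81.8, 73.7 and 70.3 CPM in Cip2a-/- glands, against 55.9, 64.4 and 64.4 CPM in WT glands. It lay apart with the smallest p of the list (0.29 ± 0.11, unadjusted p = 0.0181). Its close relative Ensa stood at 149, 103 and 122 CPM in Cip2a-/- glands, against 98.9, 94.98 and 108 CPM in WT glands (0.31 ± 0.16). The B'' subunit gene Ppp2r3a stood at 158, 21.2 and 18.2 CPM in Cip2a-/- glands, against 29.8, 27.4 and 25.4 CPM in WT glands, so that it was high in 1 gland, the one rich in muscle RNA, and lower than WT in the other two.

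Genes of DNA damage repair and checkpoints were mixed, with 25 of 44 positive and a median of 0.04. Mgmt, which removes alkyl groups from guanine, stood at 39.5, 38.4 and 27.8 CPM in Cip2a-/- glands, against 13.3, 15.2 and 29.6 CPM in WT glands (0.86 ± 0.35, unadjusted p = 0.0284), and WT library 3 again lay with the Cip2a-/- glands. Chek2, the checkpoint kinase gene downstream of ATM, stood at 9.32, 13.2 and 15.4 CPM in Cip2a-/- glands, against 22.5, 16.6 and 16.995 CPM in WT glands (-0.57 ± 0.28). Nbn, the NBS1 subunit gene of the break-sensing complex, stood at 31.8, 29.97 and 32.0 CPM in Cip2a-/- glands, against 25.7, 26.7 and 25.4 CPM in WT glands (0.27 ± 0.16). In Chek2 and Nbn the groups lay apart, in opposite directions.

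Genes that metabolise DMBA were read as a list of their own. Of 11 genes of the aryl hydrocarbon receptor pathway 4 were positive and 7 negative (median -0.07), and no gene lay apart. Ephx1, the epoxide hydrolase that helps to activate DMBA, stood at 344, 407 and 295 CPM in Cip2a-/- glands, against 174, 212 and 369 CPM in WT glands (0.47 ± 0.23, unadjusted p = 0.0610). WT library 3 overlapped here as well.

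Genes of the integrated stress response, which the transcription factor ATF4 drives, were positive in 16 of 19 (median 0.24). Groups lay apart above WT in 5 of the 19 (6.76% of all genes). Phgdh, the first enzyme of serine synthesis, stood at 72.2, 145 and 205 CPM in Cip2a-/- glands, against 69.8, 88.3 and 65.8 CPM in WT glands (0.91 ± 0.49). Gadd45b, a stress gene, stood at 16.9, 23.7 and 17.4 CPM in Cip2a-/- glands, against 11.5, 13.5 and 8.71 CPM in WT glands (0.78 ± 0.46) and lay apart. Atf4 stood at 182, 159 and 209 CPM in Cip2a-/- glands, against 144, 150 and 180 CPM in WT glands (0.22 ± 0.19). The median of this list was -0.16 in untreated glands and -0.26 at the endpoint.

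Interferon-stimulated genes leaned the other way, with 19 of 25 negative, a median of -0.15 and 3 apart below WT (6.41% of all genes). Rsad2, the antiviral enzyme viperin, stood at 9.18, 10.8 and 8.49 CPM in Cip2a-/- glands, against 26.8, 19.1 and 13.9 CPM in WT glands (-1.07 ± 0.41, unadjusted p = 0.0199). Stat2, a transcription factor gene of the interferon response, stood at 55.0, 64.2 and 60.7 CPM in Cip2a-/- glands, against 74.0, 62.6 and 82.7 CPM in WT glands (-0.29 ± 0.23). The median of this list was 0.39 in untreated glands and 0.45 at the endpoint, Cip2a-/- over WT.

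In the stroma, endothelial genes were negative in 15 of 18 (median -0.25), and 3 lay apart below WT (6.41% of all genes did). Kdr, the main VEGF receptor gene, stood at 103, 118 and 148 CPM in Cip2a-/- glands, against 257, 238 and 187 CPM in WT glands (-0.89 ± 0.35, unadjusted p = 0.0227). Cdh5, the junction gene VE-cadherin, stood at 205, 331 and 400 CPM in Cip2a-/- glands, against 560, 433 and 343 CPM in WT glands, and overlapped (-0.51 ± 0.38). The median of the endothelial list was -0.08 without Cip2a-/- library 1 and -0.49 without Cip2a-/- library 3. Beta-s, a beta globin gene, stood at 800, 687 and 413 CPM in Cip2a-/- glands, against 317, 287 and 255 CPM in WT glands, and 5 of 6 erythroid genes were positive (median 1.19). Its error over the 18 glands was large (1.15 ± 1.06), although the groups lay apart. Brown fat genes were negative in 8 of 11 (median -0.58), and 4 lay apart below WT (6.41% of all genes did). Cidea, a lipid droplet gene of brown fat, stood at 34.2, 21.2 and 49.0 CPM in Cip2a-/- glands, against 125, 108 and 71.3 CPM in WT glands (-1.55 ± 1.06). Without Cip2a-/- library 1 the median of the brown fat list was -1.51, and without Cip2a-/- library 2 it was -0.08. Nuclear genes of oxidative phosphorylation were positive in 31 of 32 (median 0.18), and the median was -0.06 without Cip2a-/- library 1, the gland rich in muscle RNA. Fibroblast and white fat genes had medians of 0.16 and 0.07 with no gene apart, while Lyz2, a lysozyme gene of macrophages, stood at 424, 561 and 706 CPM in Cip2a-/- glands, against 358, 340 and 481 CPM in WT glands.

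Genes were next named across the whole table by 1 rule: the 10 with the smallest p in each direction of the genes that averaged 5 CPM or more in the higher group and whose groups did not overlap. All 20 had an adjusted p of 1.00 by edgeR. On the higher side the smallest p was that of Atp6v0e2, which encodes subunit e2 of the proton pump V-ATPase. It stood at 45.9, 38.0 and 41.4 CPM in Cip2a-/- glands, against 21.6, 27.99 and 24.9 CPM in WT glands (log2 fold change 0.75 ± 0.17, unadjusted p = 0.000691), with a clear gap between the groups. Podxl2, a sialomucin of the CD34 family, stood at 29.5, 13.1 and 15.1 CPM in Cip2a-/- glands, against 6.55, 8.18 and 9.42 CPM in WT glands (1.25 ± 0.30). Gpc1, the cell surface proteoglycan glypican 1, stood at 173, 84.4 and 86.9 CPM in Cip2a-/- glands, against 40.5, 59.6 and 60.4 CPM in WT glands (1.10 ± 0.33). Cip2a-/- library 1 was far above the other two in both of these. Nme2, a nucleoside diphosphate kinase gene, stood at 242, 200.3 and 212 CPM in Cip2a-/- glands, against 141, 131 and 164 CPM in WT glands (0.59 ± 0.18). Map7d1, a microtubule-associated protein gene listed as Mtap7d1, stood at 259, 247 and 277 CPM in Cip2a-/- glands, against 190, 208 and 182 CPM in WT glands (0.43 ± 0.14).

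Of the other five higher genes 4 are given here, namely Serpinb6a (a protease inhibitor, 0.88 ± 0.27), Zfp385a (a zinc finger protein, 0.67 ± 0.21), Pcp4l1 (1.34 ± 0.42) and Slc66a3, listed as Pqlc3 (0.86 ± 0.29). Podxl2, Gpc1, Serpinb6a and Pcp4l1 were all highest in Cip2a-/- library 1, the gland with the most muscle RNA. So were Zfp385a (160, 127 and 123 CPM in Cip2a-/- libraries 1 to 3), Nme2 and Atp6v0e2. Without that library the log2 fold change was 0.83 for Podxl2, 0.69 for Gpc1, 0.58 for Serpinb6a and 1.01 for Pcp4l1. Those of Atp6v0e2, Nme2, Map7d1 and Slc66a3 were 0.69, 0.52, 0.45 and 0.86 without it. The 10 higher genes had a median transcript length of 2030 bases and the 10 lower genes of 4717 bases, in the direction of the length trend given above.

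**Figure D3:**
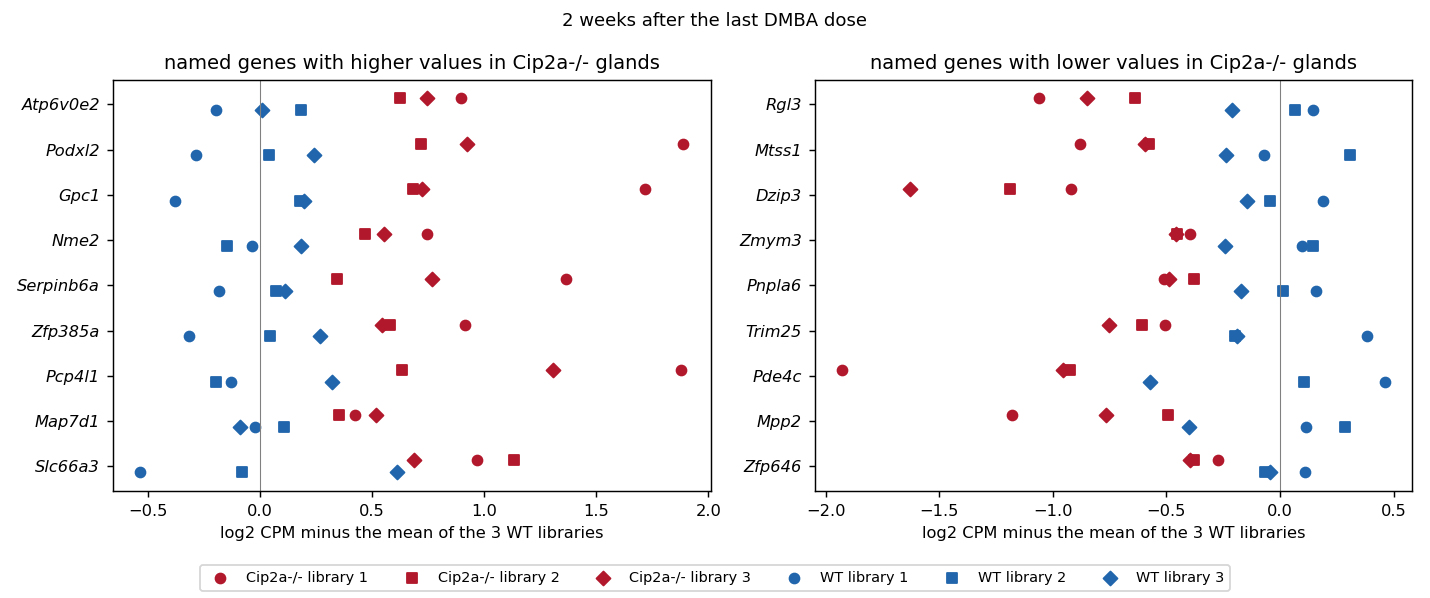
18 of the named genes in the 6 glands, as log2 CPM minus the mean of the 3 WT libraries, with higher genes on the left panel and lower genes on the right. Red points are Cip2a-/- and blue points WT libraries, with 1 shape per library number, and Ifi202b is left out because 2 of its values are 0. Podxl2, Gpc1 and Serpinb6a have their highest value in Cip2a-/- library 1, whereas the 3 Cip2a-/- values of Map7d1 and Zmym3 lie close together.

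On the lower side, Rgl3, a guanine nucleotide exchange factor gene for Ral GTPases, stood at 14.5, 19.5 and 16.8 CPM in Cip2a-/- glands, against 33.5, 31.8 and 26.2 CPM in WT glands (-0.85 ± 0.19, unadjusted p = 0.000485). Mtss1, which bends membranes at the actin cortex, stood at 86.4, 106 and 105 CPM in Cip2a-/- glands, against 151, 197 and 135 CPM in WT glands (-0.69 ± 0.18). Trim25, the ubiquitin ligase that activates the RNA sensor RIG-I, stood at 74.8, 69.9 and 63.2 CPM in Cip2a-/- glands, against 139, 92.9 and 93.5 CPM in WT glands (-0.64 ± 0.20). In these 3 genes the Cip2a-/- glands lay below all WT glands, as the naming rule requires. Zmym3, a chromatin gene on the X chromosome, stood at 54.4, 52.3 and 52.1 CPM in Cip2a-/- glands, against 76.7, 79.1 and 60.5 CPM in WT glands (-0.45 ± 0.12). The others were Pnpla6, a phospholipase gene (-0.47 ± 0.13), Pde4c, a cyclic AMP phosphodiesterase gene (-1.26 ± 0.40), Mpp2, a membrane scaffold gene (-0.81 ± 0.26), and the zinc finger gene Zfp646 (-0.35 ± 0.11). Without WT library 1 the log2 fold change of Trim25 was -0.43.

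Dzip3, the neighbour whose start lies beside that of Cip2a in the sequence above, was among the 10 lower genes. It stood at 3.56, 2.96 and 2.18 CPM in Cip2a-/- glands, against 7.70, 6.55 and 6.10 CPM in WT glands (-1.23 ± 0.33, unadjusted p = 0.00242). Among the 20 named genes it was the 1 whose groups also lay apart, in the same direction, in both other conditions. Its log2 fold change was -1.004 ± 0.33 in untreated glands and -1.49 ± 0.34 at the endpoint, from different mice. Counting was not stated to use strand, so reads from the shared start region cannot be assigned with certainty to Dzip3 or Cip2a. Of 65 genes tested within 10 Mb of Cip2a, 3 had an unadjusted p under 0.05 (2.44% of all genes did). Groups lay apart in 10 of the 65, 6 higher and 4 lower, where 6.76% and 6.41% of all genes lay apart, and the median was 0.10. Cd47, the inhibitory ligand of macrophages at 831.612 kb from Cip2a, stood at 52.2, 59.4 and 61.5 CPM in Cip2a-/- glands, against 37.0, 39.8 and 43.9 CPM in WT glands (0.52 ± 0.20). Its groups also lay apart upward in untreated glands (0.73 ± 0.20) and at the endpoint (0.62 ± 0.20). Ift57, a gene of intraflagellar transport at 679.578 kb, stood at 17.5, 25.5 and 27.6 CPM in Cip2a-/- glands, against 14.3, 15.5 and 13.8 CPM in WT glands (0.69 ± 0.25). It overlapped in untreated glands (0.06 ± 0.25) and lay apart upward at the endpoint (1.06 ± 0.26). The background of the mice was mixed, and loss of Cip2a and strain alleles linked to it cannot be told apart.

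Ifi202b, on chromosome 1 from 173962569 to 173982844, is an interferon-inducible gene whose expression is known to differ between inbred mouse strains. It was counted 0, 4 and 0 times in Cip2a-/- libraries 1 to 3, all 4 reads in library 2, against 9.44 to 15.9 CPM in the 3 WT libraries. The pooled WT level was 192 times the Cip2a-/- level, with an exact 95% counting interval from 74.7 to 706. DESeq2 called it (adjusted p = 1.01e-05) and edgeR did not (adjusted p = 1.00, unadjusted p = 0.000161). The gene did not follow the Cip2a genotype elsewhere: Cip2a-/- untreated library 2 had 0 reads, while the other two untreated Cip2a-/- glands had 5.98 and 9.79 CPM and the 3 endpoint Cip2a-/- glands 5.21 to 16.4 CPM. All 9 WT glands had 2.54 CPM or more. Reads of Ifi202b can be shared with near-identical genes of the Ifi200 family, so its counts are uncertain.

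Hprt, the purine salvage gene on the X chromosome that is often used as a reference for PCR, was chosen after its values were seen. It was counted 7, 1115 and 12 times in Cip2a-/- libraries 1, 2 and 3, or 0.480, 47.2 and 0.557 CPM. WT libraries 1, 2 and 3 had 33.0, 75.9 and 45.9 CPM. Across the series the other 16 libraries had at least 22.6 CPM, so the near absence was seen in 2 Cip2a-/- glands taken at 2 weeks and in no other gland. Over all 6 libraries Hprt had a log2 fold change of -1.67 ± 1.14 (unadjusted p = 0.163). Without Cip2a-/- library 2, edgeR called Hprt (-6.61, adjusted p = 0.0302) and not Cip2a. Strain alleles at Ifi202b and Hprt were not tested.

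**Figure D4:**
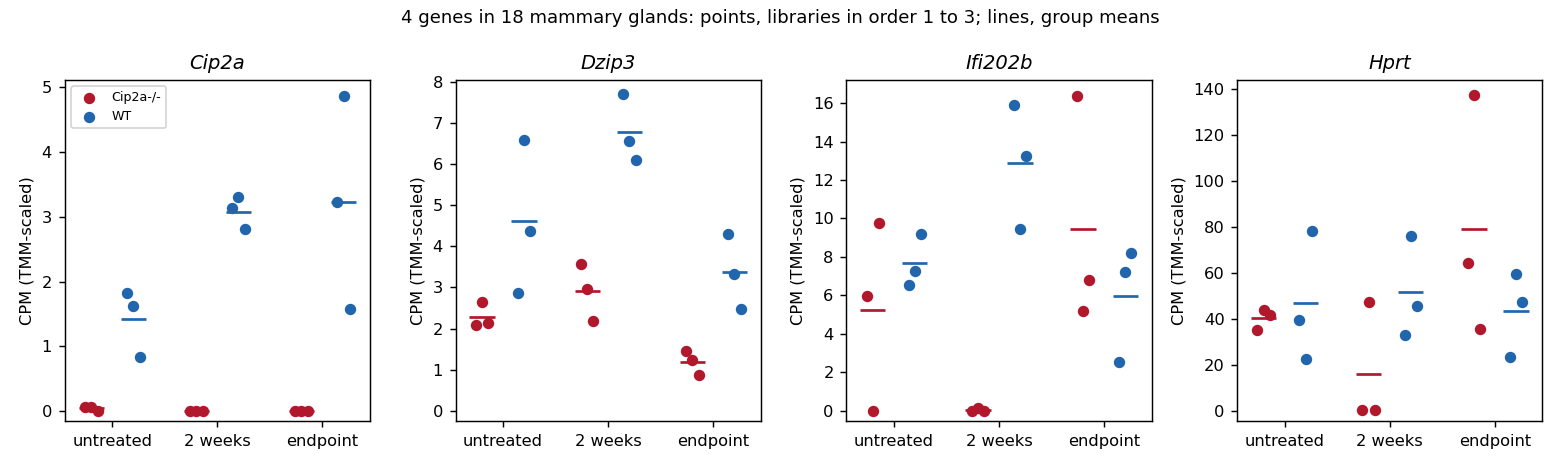
Cip2a, Dzip3, Ifi202b and Hprt in all 18 glands, in CPM on linear axes. Points are libraries in the order 1 to 3, lines are group means, and in each condition Cip2a-/- (red) stands left of WT (blue). Cip2a is near 0 in all Cip2a-/- glands and Dzip3 is lower in Cip2a-/- glands in the 3 conditions, while Ifi202b is near 0 in all 3 Cip2a-/- glands at 2 weeks and in 1 untreated Cip2a-/- gland, and Hprt in 2 of the 3 Cip2a-/- glands at 2 weeks.

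Whether the genotype differences at 2 weeks were those of other mice was asked with the untreated and endpoint glands. Their libraries are not in the 2-week contrast, but the fit estimated the spread of each gene over all 18 libraries. Of the 20 named genes, 6 had the same sign in untreated glands and 14 the opposite one. Of the 10 higher genes 9 had negative fold changes in untreated glands, where 44.4% of all genes were negative and 55.6% positive. Of these 9 genes 3 had an unadjusted p under 0.05. Over all genes 0.549% reached this in that direction, but that share is not a like background. The named genes were chosen for a small p at 2 weeks, which favours genes with a small shared spread. Of the 10 lower genes 5 were negative and 5 positive in untreated glands. Without WT untreated library 3 these sign counts were the same. At the endpoint 7 of the 10 higher genes were positive and 3 of the 10 lower genes negative, while 47.6% of all genes were positive and 52.3% negative. The difference of the differences was tested for every gene: for 2 weeks against untreated, edgeR called 0 genes (0% of 15482), with 449 (2.9%) at an unadjusted p under 0.05, while 7 were called by DESeq2. For 2 weeks against the endpoint edgeR called 0 (0%), with 1599 (10.3%) at an unadjusted p under 0.05, while 114 were called by DESeq2.

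Atp6v0e2 came nearest to a call. In untreated glands it stood at 25.9, 23.5 and 34.4 CPM in Cip2a-/- glands, against 61.1, 49.1 and 52.9 CPM in WT glands, the reverse of the order at 2 weeks with no overlap either time. The genotype effect at 2 weeks minus that in untreated glands was 1.71 ± 0.25 on the log2 scale (edgeR adjusted p = 0.0946). The adjusted p was 0.0477 with upper-quartile scaling and 6.15e-07 with DESeq2, and 0.331 by edgeR without WT untreated library 3 (1.73 ± 0.27). At the endpoint the gene overlapped between the genotypes, at 22.7 to 29.4 CPM in Cip2a-/- glands and 19.6 to 25.4 CPM in WT glands.

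**Figure D5:**
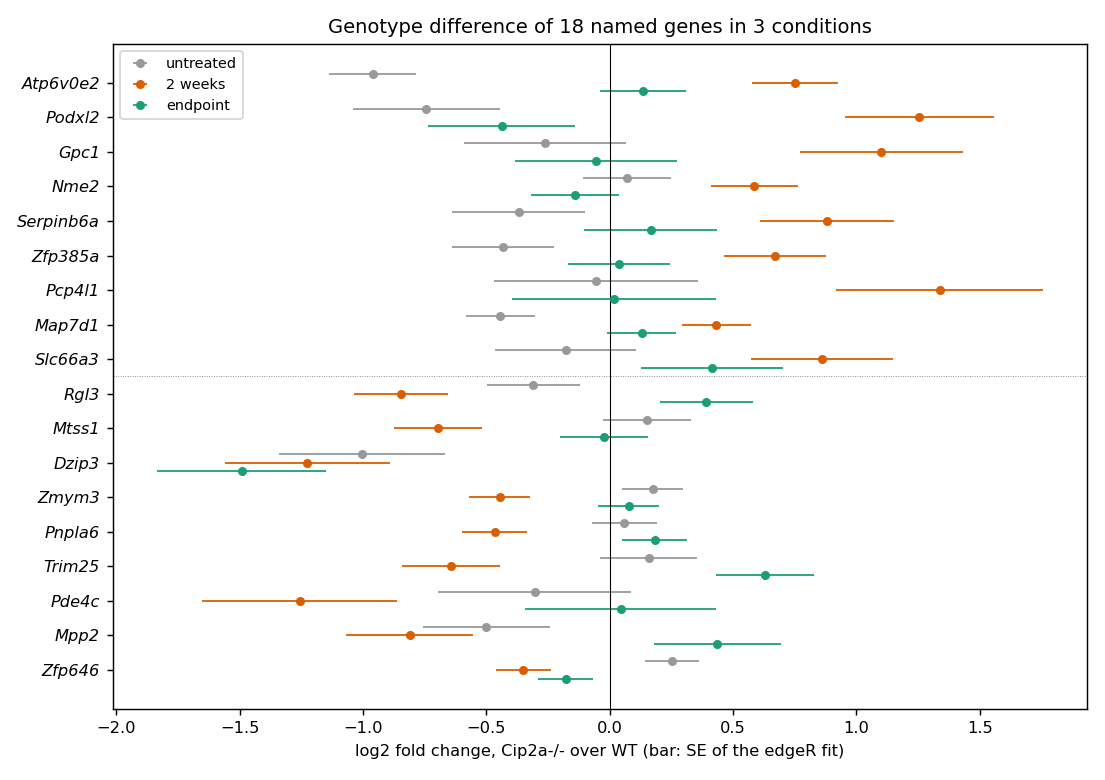
Log2 fold change of Cip2a-/- over WT for 18 named genes in untreated glands (grey), 2 weeks after DMBA (orange) and at the endpoint (green), 3 glands per genotype each, with bars of 1 SE from the edgeR fit. Genes above the dotted line were named as higher at 2 weeks and those below as lower, so the orange points lie on the side that the rule chose. Atp6v0e2 is 0.75 at 2 weeks and -0.96 untreated, and Dzip3 lies between -1.49 and -1.004 in the 3 conditions.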

How the data were processed

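The authors deposited raw read counts per gene symbol, with 1 column per library, per the file headers. STAR 2.5.2b, Subread 1.5.1, bcl2fastq 2.17 and build mm10 are named in the submitters' processing notes. The sources used here give neither the strand setting nor the annotation. Library preparation followed a TruSeq stranded mRNA protocol, per the labels. Total counts of the 6 libraries were 16121743 to 22588031. In R 4.3.3, edgeR 4.0.16 was run on these counts. Its filterByExpr (minimum count 10, minimum total 15) kept 15482 of 23337 genes. TMM scaling was used, and 1 quasi-likelihood fit took in all 18 libraries in 6 groups. P-values were adjusted by Benjamini-Hochberg over all genes tested, and genes were called at an adjusted p under 0.05. Log2 CPM used a prior count of 2. DESeq2 1.42.0, limma 3.58.1, other scaling, no filter, a replicate block, the 6 libraries alone and leaving out each library were alternatives. The fit was tried on simulated data that gave every gene the same spread and held no differences in make-up between glands. That trial therefore does not cover such differences. The comparison, the 46 gene lists and the naming rule (Cip2a, then 10 genes per direction, then the 2 members of a list with the smallest p and the member with the highest CPM, any member for lists on p53, PP2A, CIP2A partners, DNA damage and the 10 Mb around Cip2a) were chosen with earlier results of these data known. Some genes that the rule names are not reported here, though counts include them. Lists are described by counts and medians, with no test. Intervals and floors cover counting error only.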

Additional observations from a re-analysis of the deposited data

Results flagged for a closer look

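For 5 of the named genes given here the genotypes lay apart without overlap in opposite directions in a pair of conditions. Over all genes this held for 154 of 15482 (0.995%) between 2 weeks and untreated glands, and for 64 (0.413%) between 2 weeks and the endpoint. The named genes were chosen for lying apart at 2 weeks, so their share is not set against these. The difference itself was tested over all genes: it passed for none of the 5 with edgeR and TMM scaling, and for all 5 with DESeq2. With upper-quartile scaling edgeR called Atp6v0e2 against untreated glands (adjusted p = 0.0477). The DESeq2 adjusted p was 6.15e-07 for Atp6v0e2, 0.026 for Podxl2 and 0.00256 for Map7d1 against untreated glands, and 0.0101 for Rgl3 and 0.0136 for Trim25 against the endpoint. The following values are those of edgeR with TMM scaling. As the genotype effect at 2 weeks minus that in untreated glands, Atp6v0e2 had 1.71 ± 0.25 on the log2 scale (adjusted p = 0.0946). Podxl2 had 2.00 ± 0.42 and Map7d1 (listed as Mtap7d1) had 0.88 ± 0.20, each with an adjusted p of 0.999. Podxl2 stood at 11.4, 8.86 and 13.4 CPM in untreated Cip2a-/- glands, against 22.4, 18.3 and 15.7 CPM in untreated WT glands, the reverse of its order at 2 weeks. As the genotype effect at 2 weeks minus that at the endpoint, Rgl3 had -1.24 ± 0.27 and Trim25 had -1.27 ± 0.28, each with an adjusted p of 0.476. Trim25 stood at 109, 107 and 160 CPM in endpoint Cip2a-/- glands, against 70.5, 99.4 and 73.1 CPM in endpoint WT glands.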

How the results depend on the processing

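Cip2a was called lower in Cip2a-/- glands by edgeR and also with DESeq2, limma voom, upper-quartile scaling, no low-count filter and a replicate block (-8.99, adjusted p = 0.0363, 1 gene called). In a fit of the 6 libraries taken at 2 weeks alone it was not called (log2 fold change -9.02, adjusted p = 0.720, 0 genes called), nor with any 1 of these libraries left out (-8.96 to -8.84). It was also not called without WT untreated library 3 (-8.92, adjusted p = 0.0528), which was left out after seeing the data. Leaving out 1 library gave 0 or 1 called genes, and the 1, without Cip2a-/- library 2, was Hprt. DESeq2 called 3 genes at 2 weeks: Cip2a, Ifi202b and Pcdh15, the last with 0, 24 and 1 reads in Cip2a-/- glands and 0 in each WT gland. Genes at an unadjusted p under 0.05 numbered 377 in edgeR, 676 in DESeq2, 932 in the 6 libraries alone, and 125 to 573 with 1 library left out. For 2 weeks against untreated DESeq2 called 7 genes and upper-quartile scaling 1. For 2 weeks against the endpoint DESeq2 called 114, and leaving out 1 library gave 0 to 1. The cause was not tested. Deviations of same-numbered Cip2a-/- and WT libraries had correlations of -0.36, -0.13 and -0.35, no library correlated best with its own number, and the numbers pair nothing in the labels. No named gene changed sign. Genes were named only where the groups did not overlap, so leaving out 1 library could hardly have reversed them. Recomputed list medians moved by more than the spread between replicates in 22 cases and by less in 589. That spread was taken from the list scores, and an outlying gland widens it. A median could thus change sign and still count as less, as that of oxidative phosphorylation did without Cip2a-/- library 1. The 3 glands of a group differed in muscle, lymphoid and alveolar RNA, and the part of this in the list medians was not tested beyond leaving out each library.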

Other observations

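A few other genes were near 0 in some of the 6 glands and well expressed in the rest, without following the genotype, and were chosen after their values were seen. Trim12a, a TRIM family gene, stood at 0.137, 15.4 and 10.7 CPM in Cip2a-/- glands, against 11.1, 0 and 10.3 CPM in WT glands. Gbp1, an interferon-inducible GTPase gene now named Gbp2b, stood at 0.480, 51.7 and 19.7 CPM in Cip2a-/- glands, against 51.2, 21.5 and 46.5 CPM in WT glands. Gm14085, now Slc28a2b, stood at 0.0685, 8.21 and 4.96 CPM in Cip2a-/- glands, against 5.59, 5.95 and 0.0841 CPM in WT glands. Hal, which encodes histidine ammonia-lyase, stood at 0, 41.9 and 113 CPM in Cip2a-/- glands, against 47.4, 32.1 and 0.168 CPM in WT glands. Cip2a-/- library 1 was low in all 4 of these genes, and also in Ifi202b and Hprt.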
